A study of Canis lupus familiaris with 6 samples.

Results

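CIITA, the genes of the MHC class II molecules and CD74 were followed in RasV12-transformed canine kidney cells that had been cultured either alone or among normal cells. The probes were those whose annotated gene name was CIITA or CD74 or began with DLA-D or HLA-D, which gave 24 of the 43603 probes of the array and 10 genes. They are a set selected on gene name with the log2 difference between mixed and single culture of these same arrays already known, so the members' differences below are a description and carry no test.

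The cells were MDCK-pTR GFP-RasV12 cells, a derivative of the dog kidney epithelial line MDCK in which tetracycline switches on the oncogenic Ras mutant RasV12, marked with GFP. In single culture (3 arrays) these cells were grown by themselves, and in mixed culture (3 arrays) they were grown among an excess of MDCK cells. Cells of both cultures received tetracycline for 24 h on collagen-coated dishes and were sorted for GFP before total RNA was taken, so the model is 1 cell line with no immune cells added. The protocol gives 10 MDCK cells to 1 RasV12 cell, but mixed replicate 2 is labelled 100 to 1. A β-catenin mutant is mentioned in the labels where RNA extraction is described and in none of the sample titles, which do not name RasV12 either. The study's data statement lists the cells of both cultures without that mutant.

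MHC class II molecules are pairs of an alpha and a beta chain (DR and DQ in the dog) that display peptides to CD4+ T cells. They are characteristic of professional antigen-presenting cells, and epithelial cells can be induced to express them by interferon-gamma. CIITA is a co-activator that binds no DNA itself and joins a complex of RFX, NF-Y and CREB factors on class II promoters. CD74, the invariant chain, guides new class II molecules to endosomes, where proteases trim it, DM (DMA and DMB) exchanges the remaining fragment for peptide, and DO (DOA and DOB) restrains DM.

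The members were read by 60-base probes, several to a gene, and the ones shown here carry the comparison between genes. The CIITA sequence is its probe 2, at chr6:31776676-31776900 on the minus strand of the canFam3 build, which spans more than its own length and so crosses a splice junction. The DLA-DRA sequence is its probe 2, at chr12:2136082-2136141 on the plus strand, and the HLA-DRB1 sequence is its probe 2, at chr12:2152253-2152777 on the minus strand, again across a junction. DLA-DMA probe 1 lies at chr12:2517961-2518020 and DLA-DMB probe 2 at chr12:2505764-2505823, both on the minus strand. CD74 probe 1 lies at chr4:58695751-58696831 on the plus strand and also crosses a junction.
CIITA probe 2: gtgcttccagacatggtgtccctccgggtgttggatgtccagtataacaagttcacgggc
DLA-DRA probe 2: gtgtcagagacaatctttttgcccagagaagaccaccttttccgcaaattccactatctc
HLA-DRB1 probe 2: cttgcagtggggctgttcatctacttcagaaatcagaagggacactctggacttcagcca
DLA-DMA probe 1: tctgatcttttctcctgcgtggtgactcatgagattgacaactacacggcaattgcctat
DLA-DMB probe 2: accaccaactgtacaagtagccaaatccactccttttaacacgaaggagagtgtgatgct
CD74 probe 1: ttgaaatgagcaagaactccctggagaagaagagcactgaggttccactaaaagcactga

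Class II genes resemble one another, so the letters also show how far a probe can be assigned to 1 gene. DLA-DQB1 probes 1 and 2 share a run of 53 bases, in capitals below, and are near-copies of each other. Probe 1 was designed on a DQB1 allele but is annotated at chr12:2157229-2157288 on the minus strand, between HLA-DRB1 probe 2 (above) and HLA-DRB1 probe 3 (chr12:2157321-2164447), whereas probe 2 lies at chr12:2307852-2307911. Both read nearly the same letters, and signal from alleles or from a related beta chain cannot be told apart by them. DLA-DQB1 probe 4 (chr12:2307461-2307520) and DLA-DOB probe 1 (chr12:2379655-2379714), both on the minus strand, are identical at 46 positions when set 1 base apart, with a longest shared run of 14 bases, also in capitals, the longest among the 254 pairs of member probes of different genes.
DLA-DQB1 probe 1: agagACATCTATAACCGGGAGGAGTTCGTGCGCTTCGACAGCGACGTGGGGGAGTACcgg
DLA-DQB1 probe 2: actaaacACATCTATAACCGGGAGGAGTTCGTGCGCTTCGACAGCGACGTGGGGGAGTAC
DLA-DQB1 probe 4: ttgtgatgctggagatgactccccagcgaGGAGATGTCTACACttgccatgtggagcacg
DLA-DOB probe 1: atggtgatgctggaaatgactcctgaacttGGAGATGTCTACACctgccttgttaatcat

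Intensities are given as the scanner's processed signal, scaled so that the 75th percentile of every array lies at 639, in the order of replicates 1, 2 and 3. Differences are on the log2 scale, mixed minus single culture, with the standard error (SE) of limma's fit over all tested probes and n = 3 arrays per culture. A probe was tested if 1 culture or both had it well above background on all 3 arrays, by the scanner's own call, which held for 26535 probes. Over all of them, 5.50% were called higher in mixed culture (adjusted p under 0.05, limma, Benjamini-Hochberg) and 5.72% lower. Between 60.8% and 66.4% of probes were above background on each array. The labels name the replicates as separate samples without saying that they came from separate cultures, so SEs measure the spread between these samples, which may be technical. Each culture filled its own slide and was scanned on its own, so slide and culture cannot be told apart.

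Of the 24 member probes, 15 were well above background on all 6 arrays, 19 passed the filter and could be tested, and 2 were above background on no array. In the 19 tested probes the median log2 difference was 1.75, beside -0.0037 over all tested probes, and in 13 of them every mixed array lay above every single array, as it did for 17.8% of all tested probes. The fit called 12 of the 19 higher and none lower, from 6 of the 9 genes tested, with log2 differences of 1.18 to 3.29. Of these, DLA-DQA1 probe 1 and DLA-DQB1 probes 3 and 4 passed the filter only through mixed culture, where they were higher. When only probes above background on all 6 arrays were fitted, 9 of 15 member probes were called. Because the members were taken for this difference, nothing is read from the excess over 5.50%. The differences fell into 2 kinds by gene: CIITA and the DR, DQ and DM genes lay between 1.18 and 3.29, whereas both probes of DLA-DOA and both of CD74 lay between 0.03 and 0.12. Among probes above background on all 6 arrays, those of CIITA and the DR, DQ and DM genes lay between 1.25 and 2.52.

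**Figure D1:**
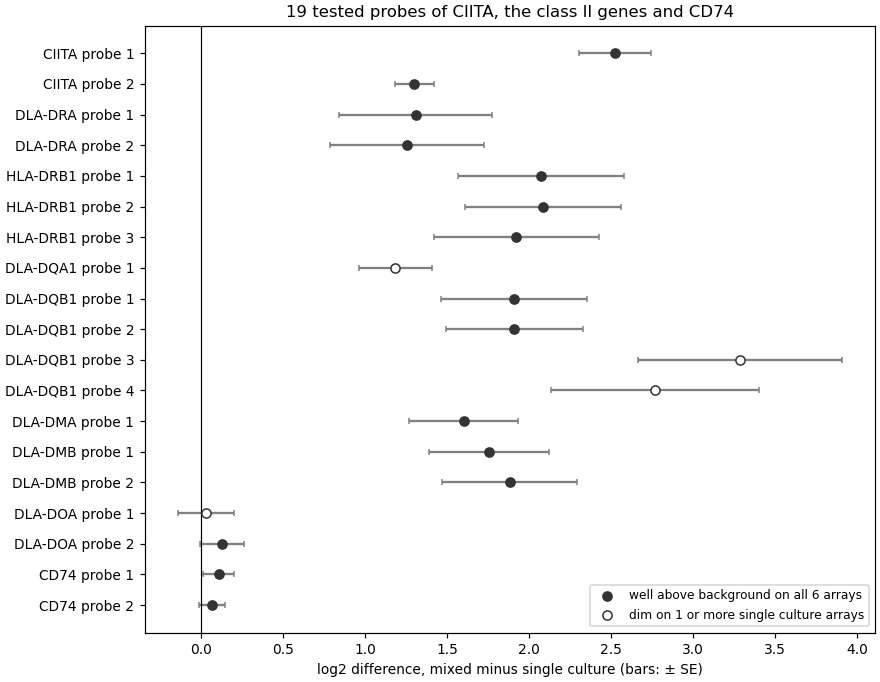
Log2 difference between mixed and single culture (x axis, mixed minus single) for the 19 tested probes (y axis), with bars of ± SE. Filled points were well above background on all 6 arrays and open points were dim on at least 1 single culture array. The CIITA, DR, DQ and DM probes lie at 1.18 or more, and the DLA-DOA and CD74 probes lie at 0.12 or less.

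CIITA, the master co-activator of the class II genes, was higher on every mixed array. Its probe 1 (chr6:31774622-31774681, minus strand) read 72.7, 48.4 and 59.5 in single culture and 256, 377 and 411 in mixed culture. All mixed values lay above all single values, with the lowest mixed array at 4.31 times the single culture mean (geometric) and the highest at 6.92 times. The log2 difference was 2.52 ± 0.22. Probe 2, upstream of it in the transcript, read 32.5, 27.4 and 30.6 in single culture and 65.3, 84.5 and 73.4 in mixed culture, again without overlap. Its log2 difference of 1.30 ± 0.12 was smaller than that of probe 1. Under the normexp background correction, which compresses dim probes, the differences were 1.71 and 0.61. Probe 3 (chr6:31787031-31787090, minus strand), the farthest upstream, was well above background on 1 mixed array and on no single array, with values from 5.63 to 22.8 that overlapped between cultures, and was not tested.

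DLA-DRA, the alpha chain of DR, had overlapping cultures on both of its probes. Probe 1 (chr12:2136615-2136674, plus strand) read 208, 374 and 426 in single culture and 398, 1084 and 1164 in mixed culture. Mixed replicate 1 lay within the single culture range, and the other mixed arrays lay above it at 3.37 and 3.62 times the single culture mean. Probe 2 showed the same order of arrays, with 92.1, 164 and 196 in single culture and 171, 470.1 and 499 in mixed culture. The log2 differences of 1.31 ± 0.47 and 1.25 ± 0.47 were not called in the fit without a replicate block, and both were called with the replicate number as a block, which lowered their SE to 0.14.

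HLA-DRB1, the partner beta chain, was read by 3 probes that lay along the gene. Probe 1 (chr12:2151410-2151469, minus strand) read 1962, 2959 and 2969.6 in single culture and 4654, 16322 and 16863 in mixed culture. No mixed array overlapped with single culture, but mixed replicate 1 was at 1.80 times the single culture mean and replicates 2 and 3 were at 6.32 and 6.53 times. Probe 2 read 515, 769.8 and 837 in single culture and 1342, 4153 and 4537 in mixed culture. Probe 3 read 50.4, 81.9 and 85.5 in single culture and 118, 385 and 423 in mixed culture. The 3 probes gave nearly the same log2 difference, 2.07 ± 0.50, 2.08 ± 0.48 and 1.92 ± 0.50. Probe 3 was not called without the replicate block and was called with it.

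The DQ chains were dimmer and the sizes of their differences less certain. DLA-DQA1 probe 1 (chr12:2225995-2226054, plus strand) read 10.6, 13.7 and 12.4 in single culture, where 2 of 3 arrays were above background, and 19.6, 35.1 and 30.7 in mixed culture. Mixed values all lay above single values and the log2 difference was 1.18 ± 0.22, which became 0.35 under normexp. DLA-DQA1 probe 2 (chr12:2227540-2227599) was above background on no array, with values from 3.74 to 11.7.

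DLA-DQB1, the DQ beta chain, was higher in mixed culture on 4 tested probes, of which probes 3 and 4 were dim in single culture. Probe 1 read 97.7, 143 and 147 in single culture and 227, 659 and 724 in mixed culture, and probe 2 read 76.4, 116 and 111 against 188, 499 and 555. These near-copies gave log2 differences of 1.91 ± 0.45 and 1.91 ± 0.42. Probe 3 (chr12:2305930-2305989, minus strand) read 11.4, 17.4 and 18.2 in single culture, with 2 of 3 arrays above background, and 51.7, 267 and 244 in mixed culture, a log2 difference of 3.29 ± 0.62. Under normexp this difference was 1.50, and that of probe 4 was 0.82. Probe 4 was above background on no single array and on every mixed array, where it read 22.2, 96.2 and 94.4. Its fold is therefore uncertain. Set against a floor, its mean was 4.86-fold higher in mixed culture. For each single array the floor takes the higher of the probe's own signal and the lowest signal above background of any probe. That floor is no detection limit of this probe and normexp gave a smaller difference, so 4.86 is no minimum. Probe 5 (chr12:2307760-2307819) was above background on 2 mixed arrays, at 23.6 and 25.1, and elsewhere read 3.08 to 6.55. All 5 probes had their 2 highest values on mixed replicates 2 and 3.

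The genes of the peptide exchange factor DM moved alongside the classical chains. DLA-DMA probe 1 read 73.0, 82.4 and 94.8 in single culture and 143, 332 and 333 in mixed culture, a log2 difference of 1.60 ± 0.33. DLA-DMB probe 1 (chr12:2505593-2505652) read 30.3, 37.3 and 41.5 in single culture and 65.7, 162 and 169 in mixed culture, and probe 2 read 21.4, 31.0 and 32.9 against 52.7, 140.1 and 147. Their log2 differences were 1.75 ± 0.37 and 1.88 ± 0.41, or 1.00 and 0.91 under normexp, and none of the DM probes had overlapping cultures.

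DO, which restrains DM and is best known from B cells, was dim in both cultures. DLA-DOA probe 1 (chr12:2565441-2565500) read 17.8, 26.6 and 23.2 in single culture and 26.6, 21.3 and 20.7 in mixed culture, and probe 2 (chr12:2566219-2566278) read 19.8, 16.5 and 17.1 against 18.3, 23.1 and 17.1. The cultures overlapped in both, with log2 differences of 0.03 ± 0.17 and 0.12 ± 0.14. DLA-DOB probe 1 read 8.34, 12.2 and 8.24 in single culture and 8.11, 18.3 and 19.9 in mixed culture, above background on 1 single and 2 mixed arrays, and DLA-DOB probe 2 (chr12:2378558-2379051) was above background on no array. The DOB values allowed no difference to be measured at this signal.

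CD74 was bright in both cultures and its values overlapped. Probe 1 read 4629, 5301 and 5544 in single culture and 5419, 5329 and 5859 in mixed culture, and probe 2 (chr4:58697529-58697847, plus strand) read 4155, 4672 and 4651 against 4577, 4581 and 4920.3. The log2 differences were 0.10 ± 0.09 and 0.06 ± 0.08, and with arrays scaled on the spike-in controls they turned to -0.06 and -0.10. Averaged over 3 arrays per culture, the invariant chain thus showed differences under 0.2 on the log2 scale. The tested probes of the chains it escorts differed by more than 1 on the same averages. On mixed replicate 1 alone, DLA-DRA probes 1 and 2 lay 0.31 and 0.25 above the single culture mean. Some of the chains' differences were below 1 under normexp, DLA-DQA1 probe 1 at 0.35 among them.

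**Figure D2:**
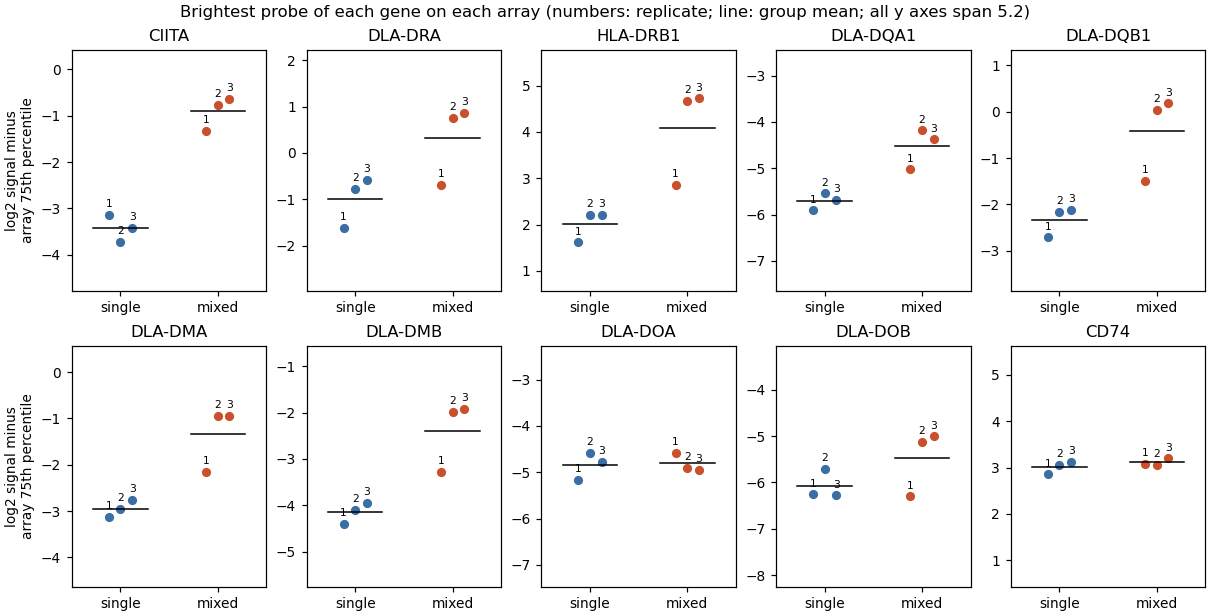
Log2 processed signal minus the array's 75th percentile (y axis, every panel spanning the same height) for the brightest probe of each gene in single and mixed culture (x axis). Points are arrays with their replicate number, and lines are group means. Replicate 1 is the lowest array of both cultures in the DR, DQ and DM panels, of which DLA-DQA1 was above background on 2 of 3 single arrays, while for CIITA the highest single array is replicate 1.

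The members also varied among themselves within each culture. In all 10 DR, DQ and DM probes that were above background on every array, replicate 1 was the lowest array of the single culture and also the lowest array of the mixed culture. Over all 26535 tested probes this held for 20.5%. The 10 probes belong to DLA-DRA, HLA-DRB1, DLA-DQB1, DLA-DMA and DLA-DMB only, and the DLA-DQB1 probes among them are near-copies. They are therefore not 10 separate observations. They were also grouped with their differences between cultures known, so nothing is read from the excess over 20.5%. Within mixed culture, replicates 2 and 3 lay above replicate 1 by 1.21 to 1.83 on the log2 scale, and within single culture by 0.28 to 0.96. Mixed replicates 2 and 3, whose labels give different mixing ratios, differed from each other by no more than 0.15 in any of these probes. CIITA showed another order in single culture, where replicate 1 was the highest array for probes 1 and 2. DLA-DOA probe 2 also had replicate 1 as its highest single array. The lowest mixed array of CD74 probe 1 was replicate 2, while CD74 probe 2 had replicate 1 lowest in both cultures. On mixed replicate 1, CIITA probes 1 and 2 were 4.31 and 2.17 times the single culture mean, and the 10 DR, DQ and DM probes were at 1.19 to 1.94 times.

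Setting arrays of the same replicate number against each other narrowed the spread for the DR, DQ and DM probes but not for CIITA. The log2 difference over the same 10 probes was 0.90 to 1.38 for replicate 1, 1.52 to 2.46 for replicate 2 and 1.34 to 2.51 for replicate 3. For DLA-DRA probe 1 it was 0.93, 1.54 and 1.45, so that the overlap of its cultures came with a low single replicate 1 as well as a low mixed replicate 1. CIITA probe 1 differed by 1.82, 2.96 and 2.79. All 10 DR, DQ and DM probes and both tested CIITA probes were higher in the mixed array at each of the 3 numbers. For probes whose cultures did not overlap this follows from that alone. The members were also chosen for this difference, so nothing further is read from it. With the number as a block, SEs over the 10 probes ranged from 0.14 to 0.28, beside 0.33 to 0.50 without it. The SEs of CIITA probes 1 and 2 were 0.24 and 0.13 with the block and 0.22 and 0.12 without it. Arrays of the same number also sat at the same place on their slides, and what the numbers stand for was not given in the sources used here.

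**Figure D3:**
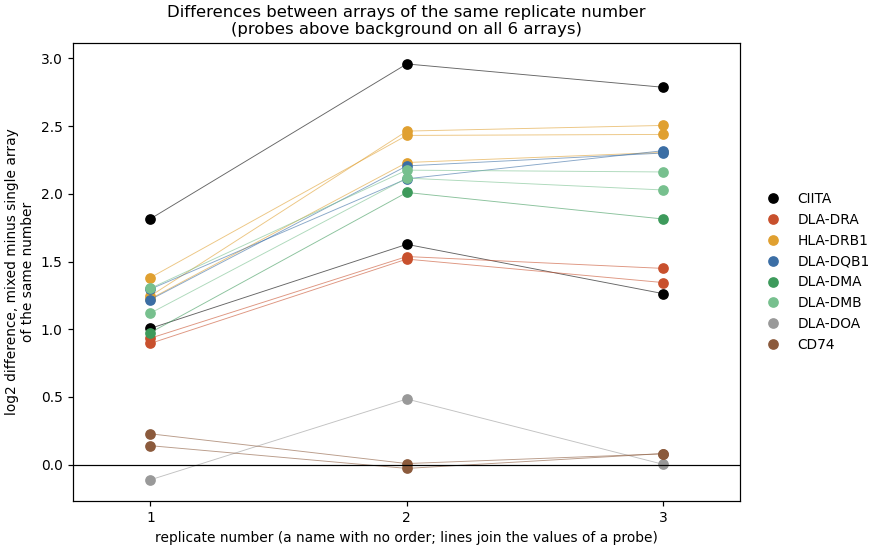
Log2 difference between the mixed and the single array of the same replicate number (y axis) for the 15 probes above background on all 6 arrays, coloured by gene, against that number (x axis, a name with no order). The CIITA, DR, DQ and DM probes lie at 0.90 or more at each number, and the DLA-DOA and CD74 probes scatter about 0.

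The class II genes lie together on dog chromosome 12, and the genes beside them give the local background. For each gene the brightest tested probe was taken, except that DLA-DQB1 probe 1, annotated among the HLA-DRB1 probes, gave way to probe 2. In the order of their coordinates, DLA-DRA, HLA-DRB1, DLA-DQA1 and DLA-DQB1 stood at 1.18 to 2.07 on the log2 scale. Further along, DLA-DMB and DLA-DMA stood at 1.75 and 1.60. Between DLA-DQB1 and DLA-DMB lay TAP2, PSMB8, TAP1 and PSMB9, genes of peptide supply to class I molecules, at 0.31 to 0.79. BRD2, which sits between DLA-DMA and DLA-DOA, read -0.16 ± 0.07 and was not called. Of 27 tested genes in and beside the interval that are not class II genes, 4 rose (PPT2, TAP1, PSMB8 and PSMB9), 1 fell (KIFC1, -0.36 ± 0.09, adjusted p = 0.0469, limma) and 22 did not pass, with a median of 0.10. Over all tested probes 5.50% were called higher and 5.72% lower. PPT2, a lysosomal thioesterase, rose by 0.68 ± 0.15 (adjusted p = 0.0371, limma). With the replicate block PPT2, TAP1 and KIFC1 were not called (adjusted p = 0.057, 0.0528 and 0.0777, limma).

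**Figure D4:**
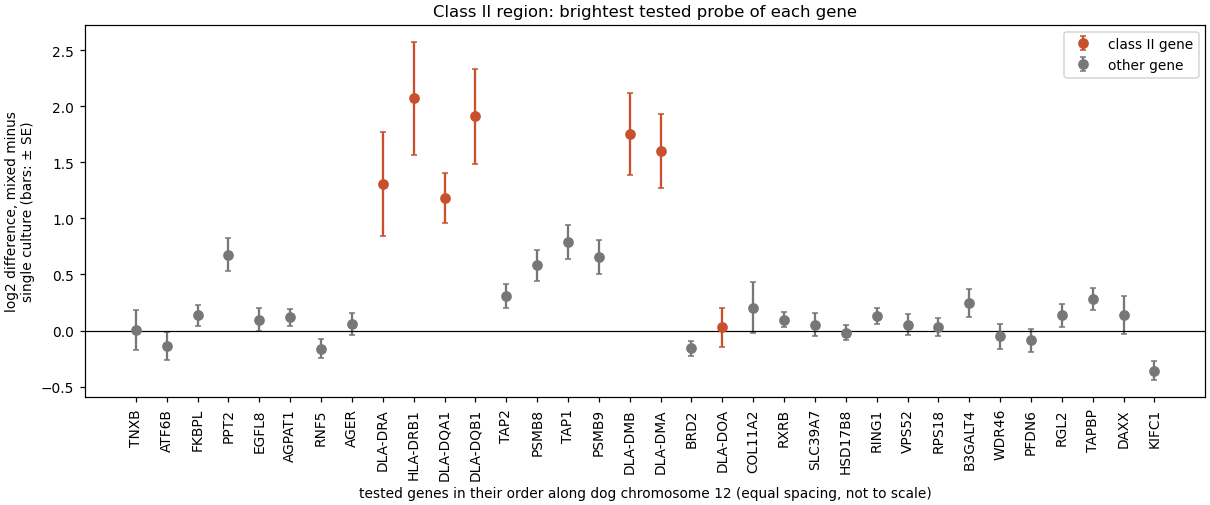
Log2 difference between mixed and single culture (y axis, bars ± SE) for the brightest tested probe of each gene, or probe 2 for DLA-DQB1. Genes are in their order along chromosome 12 at equal spacing (x axis, not to scale). Class II genes are in orange and other genes in grey, and 6 of the 7 class II genes stand at 1.18 or more while the other genes lie between -0.36 and 0.79.

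Around the members, 100 genes of the class II route and its neighbours were taken from 6 lists, of which 96 had a probe and 82 could be tested, with 1 probe per gene. Of these, 9 rose and 7 fell, beside 5.50% and 5.72% of all tested probes. With arrays scaled on the spike-in controls, where the median of all probes moved to -0.16 and 30.2% instead of 49.0% of calls were upward, 2 rose and 2 fell. Leaving out single replicate 2 or 3 or mixed replicate 2 or 3 removed every call of the lists and of the members alike, while the median difference of the member probes stayed between 1.52 and 1.86.

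The proteins that act with CIITA on class II promoters gave a mixed picture. Of 10 such genes, acetyltransferases among them, 2 rose, 1 fell and 7 did not pass. Over all tested probes 5.50% were higher and 5.72% lower. The median difference was 0.21. Counting any probe of a gene, 3 rose and 1 fell. RFX5, a subunit of the RFX factor that is mutated in bare lymphocyte syndrome, read 1002, 1066 and 1150.3 in single culture and 1051, 1148 and 1151 in mixed culture, a difference of 0.06 ± 0.08. The other subunits, RFXAP and RFXANK, differed by 0.16 ± 0.10 and 0.08 ± 0.14, and none of the 3 was called. NFYA, the subunit through which NF-Y recognises its CCAAT element, fell on both its probes, by 0.38 ± 0.08 and 0.29 ± 0.07 on the log2 scale (adjusted p = 0.0324 and 0.0397, limma). KAT2B, the acetyltransferase PCAF, rose on both probes, reading 409, 375 and 412 in single culture and 682, 658 and 691 in mixed culture on the brighter one (0.77 ± 0.07, adjusted p = 0.0112, limma). CREBBP, another acetyltransferase that CIITA can bind, rose by 0.65 ± 0.15 on its brighter probe (adjusted p = 0.042, limma) and differed by 0.37 ± 0.13 without a call on the other.

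On the interferon-gamma route that induces CIITA, none of the 9 genes tested here was called by limma without the replicate block (2 were higher and 2 lower at an unadjusted p under 0.05), and their median was 0.06. This count does not cover the whole route, and nothing is read from it about the route. IFNG, the ligand, was above background on no array, and IFNGR2 was not found by name in the annotation used here. The receptor chain IFNGR1 differed by 0.06 ± 0.07 and the kinase JAK1 by -0.08 ± 0.07. JAK2 read 276, 345 and 366 in single culture and 201, 251 and 266 in mixed culture, a difference of -0.46 ± 0.15 that was called with the replicate block (adjusted p = 0.0353, limma) and not without it. IRF1, a transcription factor that acts on the CIITA promoter, differed by 0.10 ± 0.13, and SOCS1, the feedback inhibitor, by 0.26 ± 0.10, neither of them called.

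Downstream of synthesis, the list of class II processing and turnover also held surface partners of CD74. Of its 15 tested genes, 1 rose, 3 fell and 11 did not pass, with a median of -0.08. The shares over all tested probes were 5.50% higher and 5.72% lower. CTSS, the cathepsin that trims the invariant chain in antigen-presenting cells, read 82.0, 87.0 and 82.3 in single culture and 131, 216 and 197 in mixed culture. It rose by 1.08 ± 0.18 (adjusted p = 0.023, limma), with mixed replicate 1 again the lowest mixed array. LGMN, the asparaginyl endopeptidase of the same compartment, fell on both probes, by 0.37 ± 0.08 and 0.42 ± 0.10 (adjusted p = 0.035 and 0.0487, limma). CD44 and CXCR4, surface partners of CD74 in its role as a receptor, fell by 0.78 ± 0.11 and 0.60 ± 0.13 (adjusted p = 0.0183 and 0.0378, limma), the latter by 0.39 under normexp. IFI30, the lysosomal thiol reductase, differed by 0.68 ± 0.18 and was not called.

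**Figure D5:**
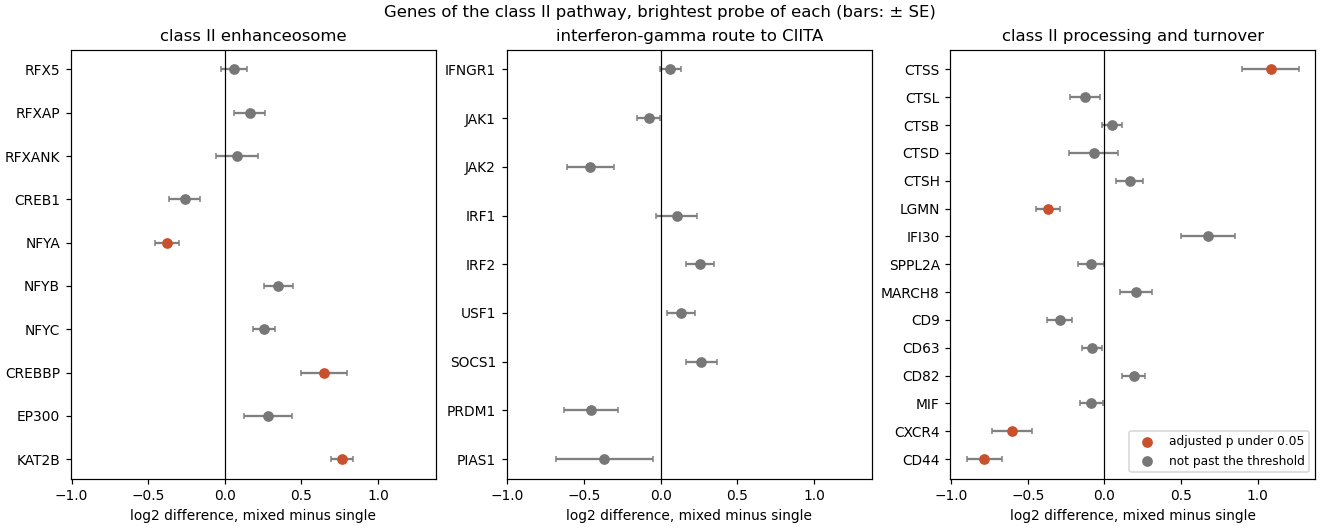
Log2 difference between mixed and single culture (x axis, bars ± SE) for the brightest probe of each tested gene (y axis). The genes are those of the class II promoter complex with acetyltransferases, the interferon-gamma route, and class II processing with CD74 partners. Genes past an adjusted p of 0.05 are in orange. CTSS at 1.08 and KAT2B at 0.77 lie farthest to the right, and CD44 at -0.78 farthest to the left.

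Of 15 co-stimulation and checkpoint genes 8 could be tested. Of the 8, 2 fell and 6 did not pass (limma, with 1 higher and 3 lower at an unadjusted p under 0.05), the median was 0.09 with 5 of the 8 above 0, and 6 genes of the list were above background on no array. Beside this, 5.72% of all tested probes were called lower and 5.50% higher. CD274, the inhibitory ligand PD-L1, fell by 0.64 ± 0.12 (adjusted p = 0.0263, limma), or by 0.34 under normexp, and CD58, an adhesion ligand for CD2 on T cells, fell by 0.63 ± 0.10 (adjusted p = 0.0209, limma). CD86 differed by 0.15 ± 0.21 and was not called.

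The class I route was called upward in 5 of 18 tested genes, with 13 not passing, beside 5.50% called higher over all tested probes. TAP1, PSMB8 and PSMB9 among them are also counted in the chromosome 12 interval above. NLRC5, which does for class I genes what CIITA does for class II, read 284, 131 and 146 in single culture and 723, 907 and 1072 in mixed culture, a rise of 2.34 ± 0.31 (adjusted p = 0.016, limma). Like CIITA and unlike the DR, DQ and DM genes, its highest single array was replicate 1. TAP1, PSMB8, PSMB9 and ERAP1 rose by 0.58 to 0.79, of which TAP1 lost its call with the replicate block. On other probes than the brightest, 2 genes were called lower, B2M on a probe that the annotation places on chromosome 2 instead of with its other probes on chromosome 30, and CALR on probe 3. These fell by 0.51 ± 0.07 and 0.31 ± 0.07 (adjusted p = 0.0183 and 0.0426, limma).

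The genes whose 6 arrays most resembled those of CIITA probe 1 were TNFRSF14, TBC1D30, DDX58, STX19 and ITGB8, with Pearson's r of 0.989 to 0.996 among 1367 tested probes with an SD of at least 0.5. Those nearest DLA-DRA probe 1 were TINAG, APOBEC1, KCNJ16, IGFBP4 and ID3, with r of 0.991 to 0.995. TINAG read 23.5, 45.5 and 47.0 in single culture and 46.4, 132 and 118 in mixed culture, so that mixed replicate 1 fell within the single culture range as it did for DLA-DRA. Among the members, the DR, DQ and DM probes had r of 0.93 to 1.00 with DLA-DRA probe 1 and 0.76 to 0.93 with CIITA probe 1. All these values rest on the same 6 arrays and are descriptions.

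Class II genes mark leukocytes, so leukocyte markers were read on the same arrays. Of 24 such genes, 12 were above background on no array, among them PTPRC, the common leukocyte antigen, and 9 could be tested. Of the 9, CORO1A alone was called, and fell by 0.87 ± 0.10 (adjusted p = 0.0135, limma), or by 0.57 under normexp. The median difference of the 9 was 0.12, with 7 above 0. Summed over the tested markers, intensity ranged from 1405 to 1560 in single culture and from 1499.7 to 1592 in mixed culture. Of 10 tested markers of kidney epithelium limma called none (3 were higher and 1 lower at an unadjusted p under 0.05), and the median difference was 0.06, with 5 of 10 above 0. OCLN, a tight junction protein, was called higher on probe 2 (0.41 ± 0.07, adjusted p = 0.0245, limma). Of 12 tested genes that Ras-MAPK signalling drives, EPHA2, FOSL1 and CCND1 fell, EGR1 rose and 8 did not pass, beside 5.72% lower and 5.50% higher over all tested probes. Counting any probe of a gene, 4 fell and 1 rose. CCND1 was not called with the replicate block (adjusted p = 0.0633, limma). The median of the 12 was -0.43, with summed intensities of 81619 to 84045 in single and 69120 to 79114 in mixed culture. Whether normal MDCK cells or altered Ras output had a part in the class II differences was not tested. In sorted bulk RNA, a few cells with much class II RNA and many cells with little cannot be told apart.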

How the data were processed

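Total RNA of sorted GFP-positive cells was labelled with Cy3 and hybridised to 6 1-colour Agilent canine arrays, 3 per culture. For each array the authors deposited scanner tables from Agilent Feature Extraction, of which the processed signal, mean signal and background columns, all intensities, were used. A series table of deposited log2 values covers 26529 probes and equals the log2 processed signal less the 75th percentile of its array. Coordinates are those of the array's canFam3 annotation.

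Control spots and flagged outlier spots (6 to 12 per array) were dropped and repeated spots averaged. Each array's 75th percentile over 43603 probes (592 to 700 intensity units) was subtracted on the log2 scale. Probes were kept if at least 1 culture had them well above background throughout (26535), and were fitted with limma 3.58.1 in R 4.3.3 (lmFit and eBayes, two-sided, Benjamini-Hochberg adjustment over all of them, threshold 0.05), a procedure tested on simulated data. Python 3.11.15, pandas 2.3.3, numpy 2.4.6 and matplotlib 3.10.9 were used for tables and plots. List genes were counted by their probe with the highest mean. RefSeq's dog table renamed 547 probes of numbered loci, and 9 probes of genes such as NLRC5 and CD58 were named from their description after values had been seen. The number of arrays limits the precision.

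The members and lists were chosen with earlier results of these data known. The genes named are every member with all its probes, fixed genes of the route (RFX5, RFXAP, RFXANK, IFNG, IFNGR1, IFNGR2, JAK1, JAK2, IRF1, SOCS1, CTSS, NLRC5, BRD2 and PTPRC), other list genes past the threshold, and the 5 genes most like CIITA and the 5 most like DLA-DRA by Pearson's r over the 6 arrays. TAP2, IFI30, CD86, B2M, CALR and OCLN fall outside that rule and were chosen after their values were seen. One list gene is not reported here and is in none of the list counts.

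Both cultures share replicate numbers. With group means removed, same-number arrays correlated at 0.162 to 0.349 over the probes and other pairs at -0.329 to 0.238. Every same-number value exceeded 0.1, so the numbers were taken as pairs in a fit with a replicate block. The correlations do not establish the pairing, since single replicate 2 correlated more with mixed replicate 3 (0.238) than with mixed replicate 2 (0.162). The further alternatives were another normalization (quantile), normexp background correction, spike-in scaling, other filters, the deposited table, a t-test, a fold threshold, any probe of a gene, and leaving out each array. A slide block could not be fitted because each slide held 1 culture.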

Additional observations from a re-analysis of the deposited data

Results flagged for a closer look

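Of 9 probes that have a class II description but lie outside the naming rule, 3 were higher on every mixed array than on any single array. This held for 17.8% of all tested probes, and nothing is read from the count. TC51754, described as DR alpha and lying at chr12:2137717-2137776 beyond the DLA-DRA probes, read 766, 1228 and 1317 in single culture and 1475, 4174 and 4278 in mixed culture, a log2 difference of 1.47 ± 0.44. NP1271920, described as DM alpha, read 29.3, 34.5 and 38.2 against 50.5, 106 and 109, a difference of 1.31 ± 0.30. M30130, described as a DLA beta chain variable region, read 27.3, 44.6 and 39.1 against 64.3, 196 and 208, a difference of 1.93 ± 0.46. M30130 and NP1271920 were called in the fit, and TC51754 was not. In all 3, replicate 1 was the lowest array of both cultures, as in the named DR, DQ and DM probes above background on every array. The other 6 did not lie above: 2 were above background on no array, and TC69194, a fragment match on another chromosome, was lower on every mixed array (-1.32 ± 0.35). With 3 arrays per culture, single outlying arrays were not assessed.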

How the results depend on the processing

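Every CIITA, DR, DQ and DM difference kept its direction under all alternatives that gave a value, and no called list gene changed sign. The number of called probes (2978), of called member probes (12) and of called list genes (16) depended on the processing as follows. Spike-in scaling left 1004, 3 and 4, with all 7 spike-ins 0.10 to 0.24 higher in mixed culture. Without the background filter limma called 12, 0 and 0, while 7820, 15 and 28 had an unadjusted p under 0.05. The methods' t-test left 826, 2 and 2 after adjustment, and 7315, 13 and 30 before it. A 2-fold threshold left 300 probes, all 12 members and 2 list genes. Leaving out 1 array at a time gave 7 to 7335 probes, 0 to 17 members and 0 to 30 list genes. Without single replicate 1 these were 7335, 6 and 30, without mixed replicate 1 they were 2009, 17 (DLA-DRA and DLA-DOB among them) and 9, and without any other array no member was called by limma, although 13 to 15 had an unadjusted p under 0.05. DLA-DOB probe 1 passed the filter there only through mixed replicates 2 and 3, at 18.3 and 19.9. It also resembles DLA-DQB1 probe 4, so no difference is read from that call. With the replicate number as a block the counts were 2825, 15 and 14, the added members being both DLA-DRA probes and HLA-DRB1 probe 3. Quantile normalization, the normexp correction, the stricter filter and the deposited table kept the 3 counts within 1.5 times. Counting any probe of a gene, which bears on the list genes alone, gave 19 of them. Over the member probes, 252 of 262 alternative values moved by less than 1 SD between replicates, and the other 10 came from the normexp correction or spike-in scaling. Signal over background limits DLA-DQA1, DLA-DOA, DLA-DOB, CIITA probe 3 and DLA-DQB1 probes 3 to 5.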
